A study of Mus musculus with 8 samples.

Results

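The immediate-early response genes Fos, Fosb, Jun, Junb, Egr1, Ier2, Dusp1, Nr4a1, Atf3 and Klf4 were read in sorted epithelial cells of the mouse jejunum. They were chosen by name, and all 10 were found among the 48440 genes of the deposited table. RNA came from 8 female mice of a Sox9-EGFP line on a C57BL/6J background, in which a green fluorescent protein reports the transcription factor Sox9, and cells with a low reporter signal were sorted. The 4 conventionalized mice (CV) were born germ-free, were given fecal slurry of conventionally raised Sox9-EGFP mice by gavage when 8 to 10 weeks old, and were harvested 2 weeks later. The 4 germ-free mice (GF) were their untreated littermates, harvested alongside, and the labels tie the animals into pairs A, B, C and D with 1 mouse of each condition. The reporter and the gate are shared by both groups, and dead or dying cells (Sytox-blue, Annexin-V), endothelial cells (CD31) and leukocytes (CD45) were gated out. The conventionalized mice also changed animal facility, so the microbiota, the gavage and the housing cannot be told apart. Times from dissection to lysis are not given in the sources used.

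Immediate-early genes are transcribed within minutes of a stimulus, without new protein synthesis, because the factors that switch them on (SRF with its TCF partners, and CREB) are already bound or present and are activated by MAP kinases and other kinases. Fos, Fosb, Jun and Junb encode subunits of the dimeric transcription factor AP-1. Egr1, Klf4, Nr4a1 (an orphan nuclear receptor) and Atf3 also encode DNA-binding factors. Dusp1 encodes a phosphatase that inactivates MAP kinases and so closes the loop, and Ier2 encodes a nuclear protein of the same early wave. In the gut, Klf4 is best known from differentiated epithelial cells, including goblet cells, and genes of this set are known to be induced while tissue is being dissociated into single cells.

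RefSeq start-site windows (GRCm38.p6) were used for 8 of the 10 genes, all but Egr1 and Ier2. The 250 bases before the start site are shown for the 3 genes with the most copies of the CRE core, the sequence CREB binds, and for Klf4, which has 1. Each runs 5′ to 3′ toward the start site, and the capitals mark TGACG or its reverse complement CGTCA.
Dusp1, chr17:26508473-26508722 (- strand): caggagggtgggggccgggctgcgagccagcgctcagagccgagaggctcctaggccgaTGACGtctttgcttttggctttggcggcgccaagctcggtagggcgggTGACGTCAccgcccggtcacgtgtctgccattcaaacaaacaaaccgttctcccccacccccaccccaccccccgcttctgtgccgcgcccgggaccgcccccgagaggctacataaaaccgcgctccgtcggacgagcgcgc
Nr4a1, chr15:101266596-101266845 (+ strand): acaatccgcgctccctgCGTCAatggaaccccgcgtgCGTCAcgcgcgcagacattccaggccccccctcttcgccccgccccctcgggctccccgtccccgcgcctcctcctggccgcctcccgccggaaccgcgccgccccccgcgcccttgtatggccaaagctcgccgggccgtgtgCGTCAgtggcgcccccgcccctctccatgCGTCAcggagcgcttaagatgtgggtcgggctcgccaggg
Fos, chr12:85473640-85473889 (+ strand): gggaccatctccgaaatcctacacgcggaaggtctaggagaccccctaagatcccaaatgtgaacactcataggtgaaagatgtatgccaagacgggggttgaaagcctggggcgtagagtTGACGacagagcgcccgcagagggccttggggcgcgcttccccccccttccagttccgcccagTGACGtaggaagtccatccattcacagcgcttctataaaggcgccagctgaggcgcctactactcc
Klf4, chr4:55532476-55532725 (- strand): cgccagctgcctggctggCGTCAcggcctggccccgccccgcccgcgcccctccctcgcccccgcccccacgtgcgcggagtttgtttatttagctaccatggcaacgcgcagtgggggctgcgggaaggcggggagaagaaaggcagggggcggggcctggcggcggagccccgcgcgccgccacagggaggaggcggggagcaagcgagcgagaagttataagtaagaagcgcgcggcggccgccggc
The core TGACG, on either strand, was present in 7 of the 8 windows of 300 bases (250 before to 50 after the start), all but that of Jun, and in 20.8% of the 32851 mouse windows of that length. In Dusp1 a pair of overlapping matches formed the palindrome TGACGTCA at -143 to -136 from the start site, which 1.79% of windows hold and no other of the 8 did. The EGR motif GCGNGGGCG was found in the windows of Klf4, Fosb and Nr4a1, against 5.55% of all windows. The AP-1 motif TGANTCA and the CArG box, to which SRF binds, were in none of the 8, against 7.81% and 1.63% of all windows. Sites more than 250 bases before the start were not searched, so these genes may hold such sites farther upstream. TATAAA was found in the windows of Fos and Junb, against 13.6% of all windows. In Fos it lay before the start site, at -33 to -28, and in Junb after it, at 1 to 6. No EGR match shared bases with a TGACG match, and a match is a string of letters, not an occupied site.

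Depth on an approximate read scale ran from 6209041 to 19139683 per library. Among the libraries GF C was the least like its group, with a median correlation of 0.79 with the others of it, against 0.87 to 0.94 for the other 7 libraries. The antimicrobial lectin Reg3b, a known target of the microbiota, averaged 1947 ± 1965 CPM (CPM being a level relative to the library total, scaled between libraries) in CV and 16.8 ± 17.7 CPM in GF libraries (SD, n = 4 each; log2 fold change 7.01, SE 0.99, limma adjusted p = 0.00577). Sox9 was at 378 ± 109 CPM in CV and 246 ± 82.7 CPM in GF libraries (adjusted p = 0.241). The sorted cells carried markers of several epithelial types. Summed over the list, 12 stem cell markers reached 5603 to 11019 CPM in CV libraries and 1030.1 to 5719 CPM in GF libraries. The 15 enteroendocrine markers reached 9242 to 23348 CPM in CV libraries and 38149 to 90443 CPM in GF libraries. No marker of these lists was at 0 in every library.

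Fos, Jun, Ier2 and Egr1 were among the most abundant transcripts of these cells in both groups, while Klf4, at rank 2188 or lower, was not. Fos ranked 26 to 115 among the 48440 genes in CV libraries and 15 to 38 in GF libraries. On the unscaled library total, the 10 genes together took 0.43%, 0.29%, 0.60% and 0.81% in CV libraries A to D, against 0.69%, 0.53%, 1.24% and 0.83% in GF libraries. The share was lower in the CV mouse of every pair, with a near tie in pair D, although the ranges overlapped. Pair D turned the other way after TMM scaling, where the 10 genes summed to 5607, 2785, 5189 and 10416 CPM in CV libraries A to D, against 7741, 5457, 8836 and 7293 CPM in GF libraries. Per kilobase of transcript, which allows genes to be compared with each other, Fos stood at 804 ± 416 CPM per kb in CV and 913 ± 160.4 CPM per kb in GF libraries (SD, n = 4 each). Ier2 followed, at 763 ± 354 CPM per kb in CV and 683 ± 84.9 CPM per kb in GF libraries, and the mean ± SD of both genes overlapped in each group. Jun came next in both groups, with means of 335 in CV and 373 in GF libraries. The lowest were Nr4a1 (17.6 in CV, 23.8 in GF), Fosb (7.39 in CV, 8.61 in GF) and Klf4 (6.21 in CV, 14.2 in GF). Junb, Egr1, Dusp1 and Atf3 lay between, at 82.2 to 299 CPM per kb. Neighbours in the order of a group overlapped in mean ± SD except Dusp1 above Nr4a1 in CV libraries, and Ier2 above Jun and Egr1 above Atf3 in GF libraries. On the approximate read scale, support ran from 7988 to 46472 reads per library for Fos, but from only 71.0 to 574.6 for Klf4 and from 122.0 to 2312 for Nr4a1.

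None of the 10 genes passed the main test between conditions, limma with condition as the only term and a Benjamini-Hochberg adjusted p under 0.05 over all 10053 genes tested. Over all genes, 4.92% passed, 1.16% higher and 3.76% lower in CV mice. All 10 members passed the low-value filter of 10 CPM in at least 4 libraries. At an unadjusted p under 0.05, 2 members were lower in CV mice and 0 higher, against 8.12% of all genes lower. Of the 10 fold changes, 9 were negative, called or not, as were those of 29.8% of all genes. Their median log2 fold change was -0.44, beside 0.32 over all genes tested. It was -0.13, with 6 of 10 negative, without CV B and -0.93 without CV D. With library size in place of TMM scaling, the medians were -0.68 and 0.09, so the scaling alone moved the centre of all genes by more than 0.1 and the members with it. Once the littermate pair entered as a block, which the design supports because the labels name the pairs, 2 members passed, Dusp1 and Klf4, both lower in CV mice. That fit called 5.02% of all genes lower and 8.08% higher. In it, 4 members were lower at an unadjusted p under 0.05 (Dusp1, Klf4, Junb and Nr4a1), against 8.65% of all genes. The groups overlapped for all 10 members, while 14.9% of all genes had groups apart, 5.88% with the CV libraries below.

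**Figure D1:**
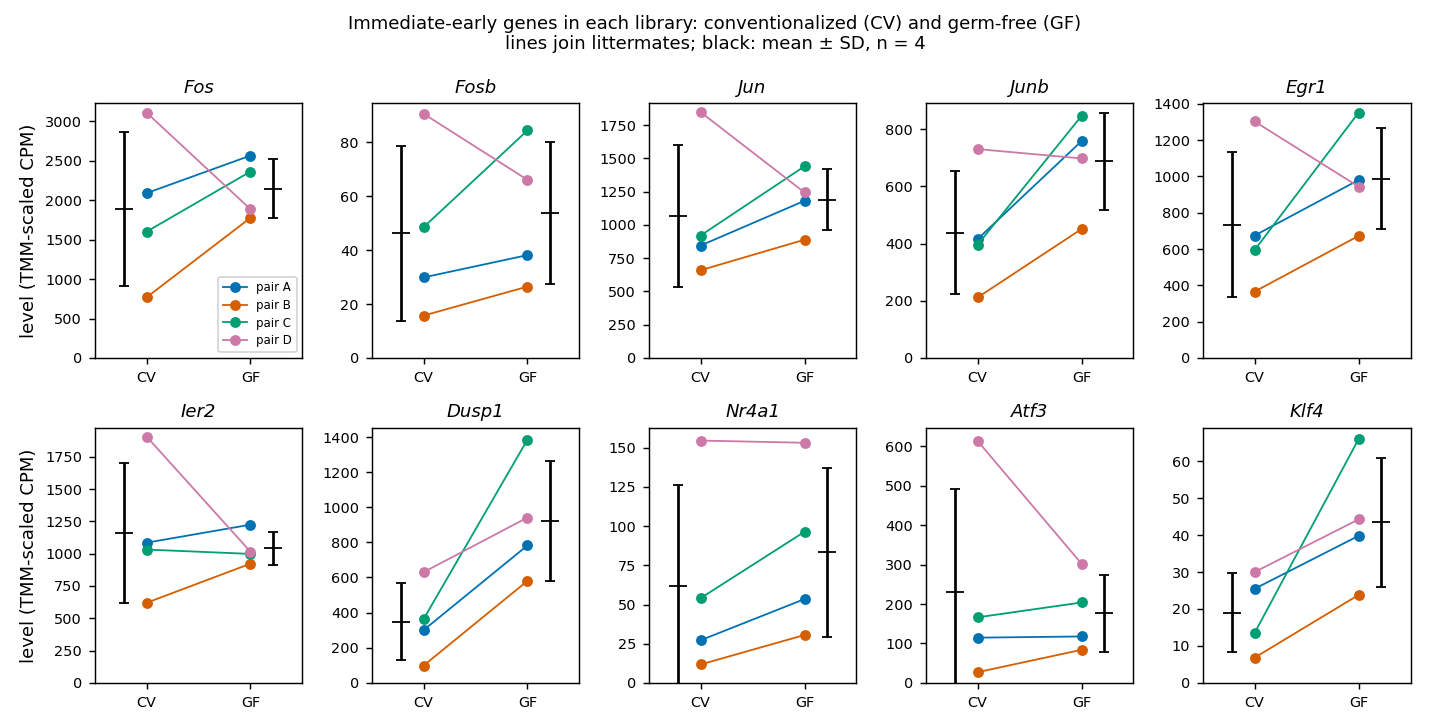
Level of each immediate-early gene in TMM-scaled CPM (vertical axis, from 0) in conventionalized (CV, left) and germ-free (GF, right) libraries, with lines joining littermates and black marks for the mean ± SD (n = 4; the lower SD bars of Nr4a1 and Atf3 in CV are cut off at 0). Every Dusp1 and Klf4 line runs upward to the right, and the groups overlap for all 10 genes.

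The AP-1 subunits were abundant and variable, with no call in either fit. Fos had 2088, 768, 1600.2 and 3108 CPM in CV libraries A to D, against 2564, 1776, 2362 and 1884 CPM in GF libraries. The conventionalized libraries held both the lowest value (pair B) and the highest (pair D), with the germ-free values nested inside. The log2 fold change was -0.34 (SE 0.45, 95% interval -1.31 to 0.64, adjusted p = 0.631; 0.58 with the pair as a block). Without CV B it was 0.040, so its sign rested on that library. Fosb, a close relative of Fos, was far lower, with 29.9, 15.7, 48.5 and 90.5 CPM in CV libraries and 38.1, 26.5, 84.3 and 66.0 CPM in GF libraries. It was lower in the CV mouse of pairs A, B and C and higher in that of pair D, and the groups overlapped (log2 fold change -0.36, SE 0.49, adjusted p = 0.639). That sign also turned, to 0.060, without CV B.

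Jun, the partner with which Fos proteins dimerize, had 845, 659.8, 921 and 1849 CPM in CV libraries and 1182, 889, 1441 and 1244 CPM in GF libraries. Again pair D alone was higher in the CV mouse, and its value was the highest of all 8 (log2 fold change -0.25, SE 0.40, adjusted p = 0.692). Junb, a Jun relative with weaker activation of many targets, had 416, 212, 396 and 731 CPM in CV libraries and 759, 451, 847 and 698 CPM in GF libraries. It was lower in the CV mouse of pairs A to C by 0.87 to 1.09 on the log2 scale and 0.066 higher in pair D. The fold change was -0.75 (SE 0.41, 95% interval -1.62 to 0.13, adjusted p = 0.232), and with the pair as a block the interval was -1.46 to -0.03 (adjusted p = 0.127). Exons of Junb overlap those of Prdx2 on the opposite strand, and since the labels do not say whether the kit kept strand, reads of the overlap cannot be told apart. Prdx2 averaged 596 ± 129.6 CPM in CV and 436 ± 181 CPM in GF libraries (log2 fold change 0.54, adjusted p = 0.35). The short antisense gene Junos, which overlaps Jun, reached at most 32.2 in the deposited units.

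Egr1, a zinc finger factor driven by SRF and its TCF partners, resembled Junb across libraries. It had 674, 366, 595 and 1303 CPM in CV libraries and 980.2, 672, 1351 and 944 CPM in GF libraries, lower in the CV mouse of pairs A to C and higher in that of pair D. The groups overlapped (log2 fold change -0.53, SE 0.43, 95% interval -1.45 to 0.38, adjusted p = 0.40; 0.306 with the block). Ier2 was the 1 member with a positive fold change. Its levels were 1085, 619.6, 1032 and 1906 CPM in CV libraries and a narrow 1224, 923, 998 and 1015 CPM in GF libraries. The CV mouse was lower in pairs A and B and higher in pairs C and D, so no direction held across litters (log2 fold change 0.052, SE 0.40, 95% interval -0.80 to 0.90, adjusted p = 0.939). Its sign turned to -0.18 with library-size scaling and to -0.25 without CV D.

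Nr4a1 and Atf3 spread widely between litters. Nr4a1 had 27.2, 11.7, 54.1 and 155 CPM in CV libraries and 53.5, 30.5, 96.4 and 153 CPM in GF libraries, 13.2-fold from the lowest to the highest. Both conditions ran in the same order of pairs, B, A, C, D, and the CV mouse was lower in pairs A to C and level with its littermate in pair D. Its log2 fold change was -0.78 (SE 0.66, 95% interval -2.20 to 0.64, adjusted p = 0.428), at -0.20 without CV B and -1.44 without CV D. With the pair as a block the standard error was 0.28 (interval -1.39 to -0.17, adjusted p = 0.0771). Atf3, a CREB-family factor induced by many cell stresses, had 115, 27.1, 166 and 614 CPM in CV libraries and 118, 83.9, 204 and 302 CPM in GF libraries. The order of pairs was again B, A, C, D in both conditions, and the range of 22.6-fold was the widest of the 10 genes. Its log2 fold change of -0.23 (SE 0.72, adjusted p = 0.843; 0.679 with the block) went to 0.53 without CV B.

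**Figure D2:**
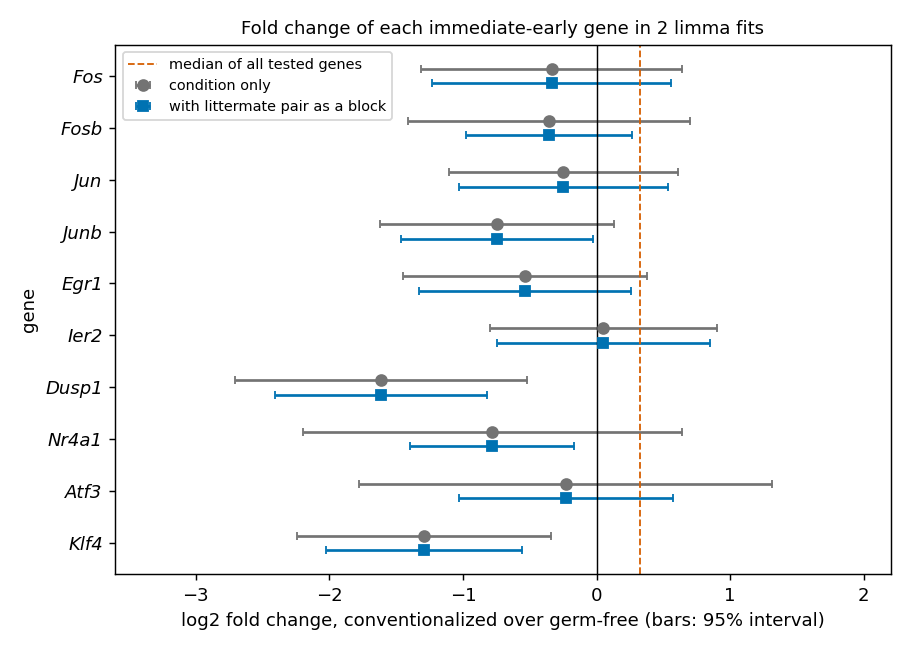
Log2 fold change of conventionalized over germ-free (horizontal axis) for each gene, with 95% intervals, from limma with condition only (grey circles) and with the littermate pair as a block (blue squares); the dashed line is the median of all tested genes, 0.32. The Dusp1 interval with the block lies between -2.41 and -0.82 and that of Klf4 between -2.03 and -0.55, and Ier2 is centred near 0.

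Dusp1 and Klf4 showed the largest differences of the set and were lower in the CV mouse of all 4 pairs, as were 9.89% of all genes. Dusp1 had 300.4, 98.4, 363 and 630.2 CPM in CV libraries and 783, 581, 1385 and 941 CPM in GF libraries. The groups overlapped only through CV D and GF B. Means were 348 ± 219 CPM in CV and 923 ± 342 CPM in GF libraries (SD, n = 4 each), a log2 fold change of -1.61 (SE 0.51, 95% interval -2.70 to -0.52), or 3.06-fold lower, and -1.94 relative to the median of all genes. The main fit left it uncalled (adjusted p = 0.0854), and with the pair as a block it fell (SE 0.36, interval -2.41 to -0.82, adjusted p = 0.0204). It passed with the block whichever pair was left out (adjusted p 0.0105 to 0.0391). With condition only, it passed when GF B was left out (adjusted p = 0.0483) and in none of the other 7 such fits (up to 0.208). Dusp1 shares exon bases with Ergic1 on the opposite strand, at 189.7 ± 48.3 CPM in CV and 133 ± 38.7 CPM in GF libraries (log2 fold change 0.52, adjusted p = 0.274), the opposite sign to Dusp1.

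Klf4, a zinc finger factor that restrains proliferation in the intestinal epithelium, had 25.5, 6.82, 13.5 and 29.99 CPM in CV libraries, against 39.8, 23.8, 65.9 and 44.2 CPM in GF libraries. CV A and CV D lay above GF B, and within pairs the difference ran from -2.25 to -0.55 on the log2 scale. Klf4 averaged 18.9 ± 10.7 CPM in CV and 43.4 ± 17.4 CPM in GF libraries (SD, n = 4 each), with a log2 fold change of -1.29 (SE 0.44, 95% interval -2.24 to -0.34), or 2.45-fold lower, and -1.61 relative to the median of all genes. It was not called with condition only (adjusted p = 0.104) and fell with the pair as a block (SE 0.34, adjusted p = 0.0325). That call was lost without pair C (-0.96, adjusted p = 0.14) and without pair D (-1.57, adjusted p = 0.0576), and was kept without pair A or B. Among the fits with condition only that left out 1 library, it passed when GF B was left out (adjusted p = 0.0443) and in no other (up to 0.212). With 71.0 to 574.6 approximate reads, it was also the member with the least depth behind it. Without CV A and GF C, the libraries least like the rest in goblet markers and in overall profile, both genes passed with condition only (Dusp1 -1.41, adjusted p = 0.00219; Klf4 -1.27, adjusted p = 0.0138). These 2 libraries were picked from the same data, and GF C held the highest level of both genes. Leaving out CV A alone or GF C alone gave no call for either gene.

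Markers of several cell types also differed between conditions. Over all genes, 3.76% fell and 1.16% rose in CV mice (5.02% and 8.08% with the block). Of the 15 enteroendocrine markers, 10 fell in CV mice (12 with the block), and their summed levels, given above, did not overlap between groups. Of the 12 stem cell markers, 1 rose in CV mice (5 with the block), and of the 8 Paneth cell markers 1 rose. The Paneth call was lost with a pseudocount of 0.1. Paneth sums overlapped, at 6999 to 10724 CPM in CV and 2928 to 18213 CPM in GF libraries. The 5 tuft cell markers tested all had negative fold changes, as did 29.8% of all genes, and none was called. Their median was -0.91, and -0.38 without CV A. Summed over all 7 markers of the list, tuft levels overlapped, at 66.0 to 569 CPM in CV and 279 to 567 CPM in GF libraries. Of the 11 enterocyte markers tested, 3 fell, with sums of 1292 to 4429 CPM in CV and 2362 to 5791 CPM in GF libraries, and of the 8 goblet markers none was called. Goblet markers summed to 49770.1 CPM in CV A, against 1410.2 to 5860 CPM in the other CV libraries and 3812 to 8035 CPM in GF libraries. Markers of cells outside the epithelium were low. Endothelial and leukocyte sums overlapped between groups, and stromal sums did not. The endothelial marker Pecam1 (CD31) was at 4.999 ± 3.34 CPM in CV and 19.9 ± 5.69 CPM in GF libraries, under 10 CPM in all 4 CV and above it in all 4 GF libraries. Only its GF levels carried it past the filter, so its fold change is given no test. The 6 endothelial markers summed to 4.20 to 26.7 CPM in CV and 23.4 to 41.4 CPM in GF libraries. The 10 stromal markers summed to 32.1 to 39.6 CPM in CV and 50.5 to 145 CPM in GF libraries, most of it Vim. Vim fell with the block only (log2 fold change -1.34, limma adjusted p = 0.0749 with condition only and 0.0428 with the block). That call was lost when pair A, B or C was left out. None of the 24 leukocyte markers passed the filter, with sums of 18.4 to 49.3 CPM in CV and 37.4 to 51.9 CPM in GF libraries. The nuclear RNA Malat1 ranged from 129.8 to 201 CPM in CV and from 309 to 445 CPM in GF libraries. In sorted bulk cells, fewer cells of a type and less RNA per cell cannot be told apart, and the part these shifts have in the Dusp1 and Klf4 differences was not tested.

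Each of the other 9 genes was also set against Fos in the same library, a ratio that does not depend on the scaling between libraries. These 9 ratios were chosen after the values had been seen. For Dusp1 the ratio was 0.144, 0.128, 0.227 and 0.203 in CV libraries A to D, against 0.305, 0.327, 0.587 and 0.4996 in GF libraries. The groups did not overlap, and the log2 difference was similar in every pair, -1.37 to -1.09 (mean -1.28). Two-sided exact permutation of the 8 libraries gave p = 0.0286, the smallest that 70 assignments allow, and 0.129 after adjustment over the 9 ratios, which does not pass. These permutations ignored the littermate pairs. How many of all genes had a ratio to Fos without overlap was not computed. The Klf4 ratio was also lower in the CV mouse of all 4 pairs without overlap (mean log2 difference -0.99, exact permutation p = 0.0286, adjusted p = 0.129), though its pairs ranged from -1.72 to -0.35. For Junb the mean difference was -0.41 (exact permutation p = 0.0571, adjusted p = 0.171), lower in 3 of 4 pairs. The Ier2 ratio was higher in the CV mouse of all 4 pairs (0.39, exact permutation p = 0.0857, adjusted p = 0.193). The Nr4a1 ratio was lower in the CV mouse of all 4 pairs, by -0.71 to -0.17, with overlapping groups (mean -0.46, exact permutation p = 0.486, adjusted p = 0.729). The other 4 ratios differed by -0.20 to 0.10 on average, with exact permutation p of 0.343 or more. A ratio shows that 2 genes changed unequally and not which of them changed.

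**Figure D3:**
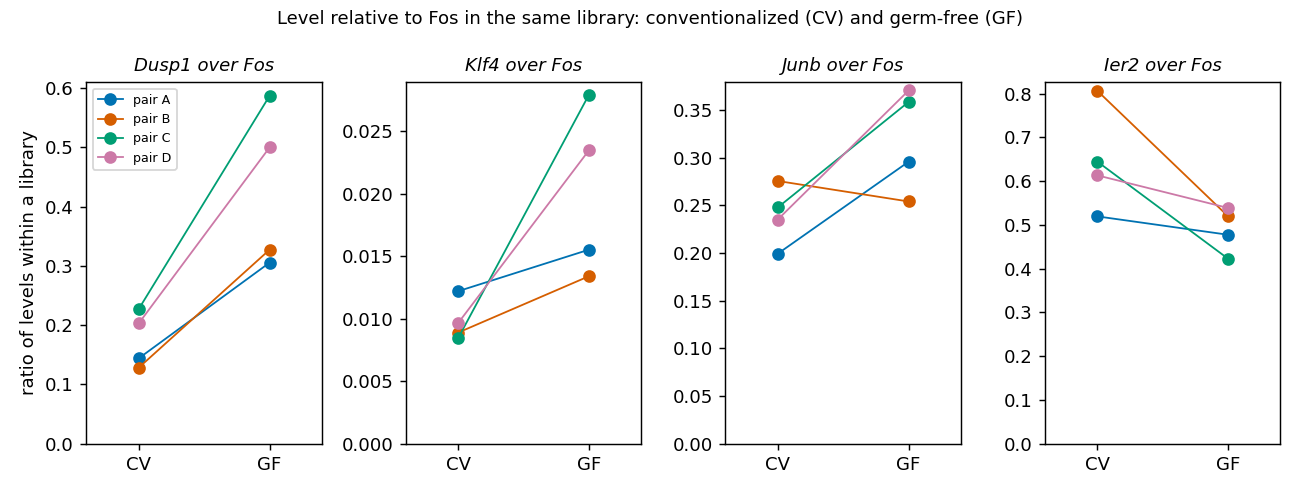
Level of Dusp1, Klf4, Junb and Ier2 divided by that of Fos in the same library (vertical axis, from 0), in conventionalized (CV, left) and germ-free (GF, right) mice, with lines joining littermates. All Dusp1 ratios lie at 0.227 or below in CV and at 0.305 or above in GF, and every Ier2 line runs downward to the right.

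The members varied with each other. Pair B held the lowest library of both conditions for 10 of 10 members, as it did for 2.82% of all tested genes; with library-size scaling these were 9 members and 3.48%. Among the conventionalized libraries, that of pair D was the highest for all 10 genes. The share of all genes for which this held was not computed. The full order of the pairs was the same in both conditions for only 2 members, Nr4a1 and Atf3. Since the members varied together, these counts are not 10 separate observations. Over all 8 libraries the maximum lay in CV D for 6 genes (Fos, Fosb, Jun, Ier2, Nr4a1 and Atf3) and in GF C for 4 (Junb, Egr1, Dusp1 and Klf4). This split depended on the scaling, since with library size only GF C was the highest for 7 genes and CV D for 2. The mean deviation of the 10 genes from their own averages, on the log2 scale, was -0.33, -1.53, -0.23 and 0.88 in CV libraries A to D, against 0.24, -0.32, 0.72 and 0.57 in GF libraries. CV B lay farthest from 0.

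**Figure D4:**
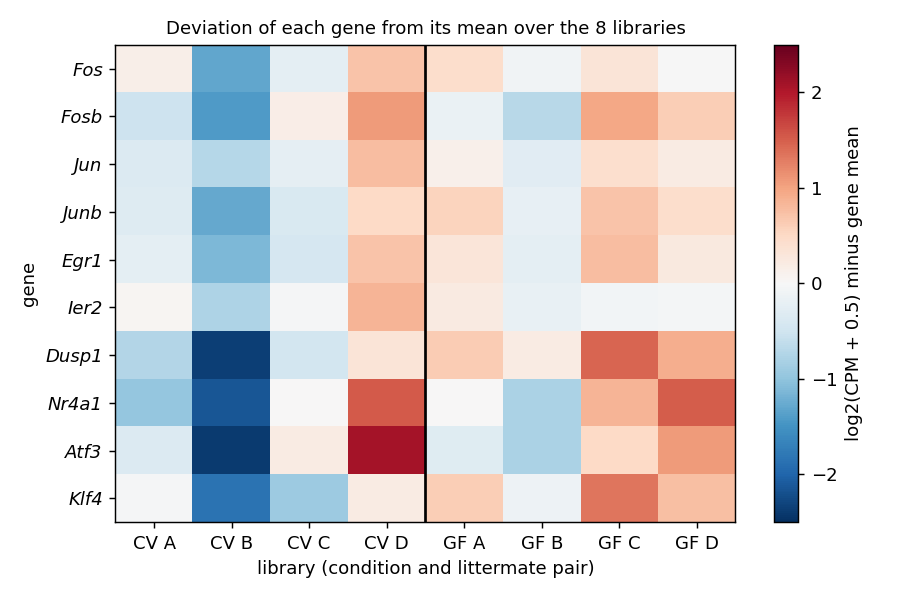
Deviation of each gene (rows) from its mean over the 8 libraries, in log2(CPM + 0.5), by library (columns, conventionalized CV left and germ-free GF right of the line; red above and blue below the mean). The CV B column is blue in every row and the CV D column red in every row.

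Pearson correlations of log2 levels over the 8 libraries were positive for all 45 pairs of members, at 0.52 to 0.97 with a median of 0.84, and Spearman's rho ran from 0.19 to 0.98 with a median of 0.71. With exact permutation p-values adjusted over the 45 pairs, 40 passed by Pearson and 16 by Spearman. These p-values treat the 8 libraries as exchangeable and so ignore litter and condition. All points share the scaling factor of their library, and with library-size scaling the correlations ran from 0.67 to 0.98. Without the 2 libraries farthest from the median of the first gene of each pair, r ranged from -0.09 to 0.96 with a median of 0.70, stayed at 0.5 or more in 34 pairs and was negative in 5. Junb and Egr1 were the closest pair (r = 0.97, rho = 0.95, exact permutation adjusted p = 0.00298 and 0.00856), with r = 0.92 without the 2 farthest libraries. Nr4a1 and Atf3 likewise held (r = 0.95, rho = 0.98, exact permutation adjusted p = 0.0029 and 0.00856; r = 0.93 without them). Dusp1 and Klf4 had r = 0.95 and rho = 0.93 (exact permutation adjusted p = 0.0043 and 0.0126; 0.78 without them). By contrast, the relation of Fos and Atf3 (r = 0.82, rho = 0.62, exact permutation adjusted p = 0.03 and 0.152) rested on CV B and CV D, with r = -0.04 without them. Ier2 was least tied to Dusp1 (r = 0.54, rho = 0.19, exact permutation adjusted p = 0.175 and 0.665) and to Klf4 (r = 0.52, rho = 0.31, exact permutation adjusted p = 0.184 and 0.472), with r = -0.09 and 0.12 without the farthest libraries. With each group's mean removed, all pairs had r of 0.72 to 0.98, as a description.

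Among the tested genes other than the 10 members, those nearest to the mean profile of the members over the 8 libraries, by root mean square difference of centred log2 levels, were Dusp5 (0.170), a phosphatase of ERK, Btg2 (0.196), an antiproliferative gene, and Ppp1r15a (0.254), which restores translation after stress. Plk3 (0.264), a stress-responsive kinase, Cbx8 (0.267), a Polycomb subunit, and Tsc22d1 (0.277) followed, where the median of all tested genes was 0.939. Of the members themselves, Junb and Egr1 lay at 0.211 from the mean profile and Atf3, the farthest, at 0.631. Btg2 had 361, 179, 389 and 678 CPM in CV libraries and 657, 429, 840.4 and 591 CPM in GF libraries. It shared the lows of pair B and the conventionalized high of pair D, and it was not called (log2 fold change -0.76, SE 0.42, adjusted p = 0.234). Nearest to Fos outside the members were Zfp36 (0.146), whose protein destabilizes messenger RNAs of the early response, and Id1 (0.201). Nearest to Egr1 were Btg2 (0.160) and Ppp1r15a (0.161), and nearest to Klf4 were Plk3 (0.324) and Acta1 (0.331). All of these genes were picked for their likeness to members in the same 8 libraries, so their tests are not separate results. None was called with condition only. Acta1, skeletal muscle actin and a known SRF target, was picked for its likeness to Klf4. Like Klf4, it was lower with the block (log2 fold change -1.20, limma adjusted p = 0.0238).

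Of 50 further immediate-early genes, 40 were tested, and 1 rose and 1 fell in CV mice. Over all genes 1.16% rose and 3.76% fell. Rgs2, which shortens signalling of Gq-coupled receptors, had 111, 53.9, 99.9 and 83.2 CPM in CV libraries and 339.5, 222, 276 and 233 CPM in GF libraries. It was lower in all 4 pairs without overlap (log2 fold change -1.65, SE 0.31, adjusted p = 0.00899) and passed in 8 of 8 fits that left out 1 library. Nfil3, a bZIP repressor, averaged 34.3 ± 11.1 CPM in CV and 14.5 ± 4.22 CPM in GF libraries (log2 fold change 1.20, SE 0.32, adjusted p = 0.0491), and passed in 2 of those 8. With the block, 4 of the 40 rose and 4 fell, beside 8.08% and 5.02% of all genes. The higher ones added were Ier5 (1.33, adjusted p = 0.0228), Zfp36l1 (1.79, 0.0238) and Zfp36l2 (1.02, 0.0346). Those added among the lower were Gadd45g (-1.25, 0.0238), Klf2 (-1.32, 0.0329) and Errfi1 (-1.10, 0.0368), a feedback inhibitor of the EGF receptor. The median log2 fold change of the 40 was -0.12, beside 0.32 over all genes.

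Few genes that act upstream of or beside the members passed. Of 13 AP-1 partners none was called, nor of 13 SRF, TCF and CREB genes nor of 22 genes of the MAP kinase cascade. Over all genes 4.92% were called, so lists this short would hold few calls at that share. The medians were -0.24, -0.00 and -0.07, beside 0.32 over all genes. With the block, the partner Cebpb rose (104 ± 49.8 CPM in CV and 46.7 ± 17.8 CPM in GF libraries, log2 fold change 1.11, adjusted p = 0.0424). Srf itself averaged 38.1 ± 9.62 CPM in CV and 25.5 ± 10.4 CPM in GF libraries (log2 fold change 0.64, adjusted p = 0.23). In the MAP kinase list, p38α (Mapk14) and p38δ (Mapk13), both substrates of MAP kinase kinases active under stress, had opposite signs. Mapk14 averaged 109 ± 14.4 CPM in CV and 169 ± 31.0 CPM in GF libraries (-0.62, adjusted p = 0.164), and Mapk13 averaged 711 ± 183 CPM in CV and 375 ± 146 CPM in GF libraries (0.999, adjusted p = 0.144). Neither passed.

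Relatives of the members that showed the largest differences were not called with condition only. The 4 tested of 11 other Dusp genes, Dusp4, Dusp5, Dusp6 and Dusp16, all had negative fold changes, from -0.77 to -0.42, as did 29.8% of all genes. Dusp4 averaged 15.0 ± 3.77 CPM in CV and 26.0 ± 5.96 CPM in GF libraries (-0.77, adjusted p = 0.136). The 9 tested of 16 other Klf genes had a median of 0.26, beside 0.32 over all genes. Klf5, a factor of proliferating crypt cells, averaged 778 ± 259.8 CPM in CV and 449.6 ± 159 CPM in GF libraries (0.81, SE 0.40, adjusted p = 0.196), the opposite sign to Klf4 and to Klf2. Egr2 and Nab1, the 2 tested of 5 genes of the Egr and Nab list, had fold changes of 0.12 and 0.51 and no call.

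Heat shock genes are also induced in handled tissue. Of 13 tested, 12 had positive fold changes, as did 7060 of all 10053 genes, and none of the 12 was called with condition only. The list's median was 0.52, beside 0.32 over all genes. With library-size scaling 9 were positive and the median was 0.28, beside 5628 of 10024 genes and 0.09. With condition only, 4.92% of all genes were called. Hspa1a averaged 30.7 ± 20.8 CPM in CV and 25.0 ± 9.52 CPM in GF libraries (0.07, adjusted p = 0.934), and Hspa1b 72.3 ± 52.4 CPM in CV and 40.5 ± 12.7 CPM in GF libraries (0.56, adjusted p = 0.441). In conventionalized libraries Hspa1b was highest in that of pair B, at 138 CPM, whereas Hspb1 was lowest there, at 7.10 CPM. The 15 heat shock genes summed to 8249, 7614, 4778 and 9070 CPM in CV libraries A to D. The 1 called heat shock gene was the small chaperone Hspb1, which fell to 40.9 ± 25.7 CPM in CV libraries, against 165 ± 38.6 CPM in GF libraries (-2.35, SE 0.54, adjusted p = 0.0253), and passed in 4 of 8 fits that left out 1 library. With the block, the mitochondrial chaperone Hspd1 rose (1.08, adjusted p = 0.049). Of 9 tested genes of the p53 and apoptosis list, the cell cycle inhibitor Cdkn1a fell, with 181 ± 66.7 CPM in CV and 449.8 ± 126 CPM in GF libraries (-1.34, SE 0.36, adjusted p = 0.0465), and passed in 3 of 8 such fits. Pmaip1, a proapoptotic p53 target, rose with the block only (1.01, adjusted p = 0.0411).

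**Figure D5:**
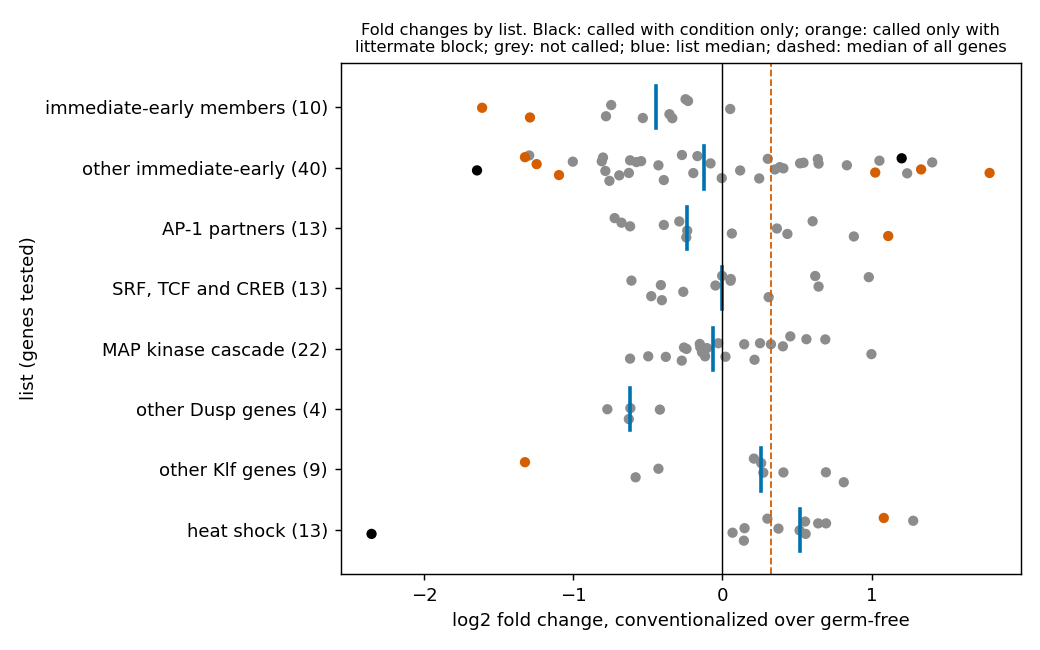
Log2 fold change of conventionalized over germ-free (horizontal axis) for every tested gene of 8 lists (rows, number tested in brackets), black where called with condition only, orange where called only with the littermate block, and grey otherwise. Blue bars mark list medians, from -0.62 for the other Dusp genes to 0.52 for the heat shock genes, and the dashed line marks the median of all genes, 0.32.

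By position in GRCm38 (GENCODE M21), the genes with the largest differences lie at chr17:26505590-26562128 (Dusp1, minus strand, including transcripts that start far upstream of the RefSeq start used above) and chr4:55527143-55532466 (Klf4, minus strand). Fos lies at chr12:85473890-85477273 on the plus strand, Jun at chr4:95049034-95052222 and Junb at chr8:84974484-84978718, both on the minus strand. Jun and Klf4 share chromosome 4, and Junb and Ier2 (chr8:84661331-84662852, minus strand) share chromosome 8. Nr4a1 lies at chr15:101254269-101274795 on the plus strand, Egr1 on the plus strand of chromosome 18, Fosb at chr7:19302696-19310051 and Atf3 at chr1:191170296-191218039, both on the minus strand.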

How the data were processed

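The deposited table holds normalized signal per gene, made by the authors: as read from the values, these are estimated counts over a library factor, and a gene factor too where a gene has more than 1 transcript. In genes with 1 transcript, at least 99.8% of the values in each library fell on whole multiples of 1 step (tolerance 0.02), against at most 33.2% in the others, so whole reads could not be recovered for all genes and no count test was run. Approximate reads are deposited values divided by that step. Per the submitters' processing notes, the tools were STAR 2.4.2a, Trimmomatic 0.36, DESeq2 1.12.4 and R 3.3.1, with build mm10, and the series text names Salmon and edgeR. Whether the kit kept strand is not given in the sources used.

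The signal was turned into CPM and scaled by TMM (30% of log ratios and 5% of intensities trimmed). Genes that reached 10 CPM in 4 or more libraries, 10053 in number, entered as log2(CPM + 0.5) a test with limma 3.58.1 in R 4.3.3 (trend, robust, condition only, two-sided, Benjamini-Hochberg under 0.05); the pseudocount understates changes of low genes. Replicates are separate animals (n = 4 per group). The condition-only fit was run on simulated data, in which genes varied independently and without litter effects. The block fit was not tried on simulated data. The labels name the littermate pairs; deviations from group means correlated within pairs by 0.14, -0.16, 0.31 and -0.01 in A to D. The block (pair plus condition) is the alternative fit, given where it changes a call. Other alternatives were the scaling, filter, pseudocount and moderation, and libraries or pairs left out.

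The members and lists were chosen with earlier results of these data known. Named were all members, up to 4 genes of lowest p per list without cell markers, and the nearest genes by profile (6 to the mean, 2 to each of Fos, Egr1 and Klf4). Called list genes beyond these, Hspa1a, Hspa1b, Pecam1, Vim, Malat1, Prdx2 and Ergic1 were named after their values were seen. RefSeq windows were matched by symbol for 8 of 10 members.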

Additional observations from a re-analysis of the deposited data

How the results depend on the processing

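With 4 animals per group and member fold changes with standard errors of 0.40 to 0.72, changes of the size most members showed were not called, and depth was lowest for Klf4. No member was called higher under any alternative run. Members called lower numbered 0 with condition only under every scaling, filter, pseudocount and moderation tried, 2 with the replicate block, 2 without CV A and GF C together, 0 to 2 with 1 library left out, and, with the block and pair A, B, C or D left out, 2, 2, 1 and 1. Dusp1 was called in each of those 4 block fits. Signs turned in 4 members. With 1 library left out, Fos ranged from -0.66 to 0.040, Fosb from -0.79 to 0.060, Ier2 from -0.25 to 0.32 and Atf3 from -0.99 to 0.53; the first 2 turned without CV B, Ier2 without CV D or GF B, and Atf3 without CV B or GF D. Fosb was 0.021 without CV A and GF C, Ier2 -0.18 with library-size scaling and -0.26 with the block without pair D, and Atf3 0.25 with the block without pair B. Without CV B, Jun was -0.05, Junb -0.44 and Egr1 -0.25, against -0.57, -1.06 and -0.88 without CV D. The cause was not tested.

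Over all genes, the 117 called higher became 263 with upper-quartile scaling, 45 with no filter, 812 with the replicate block, 235 without the 2 libraries named above, and 321, 2408 and 47 with the block without pair A, B or D. With 1 library left out they ranged from 14 to 410, and the 378 called lower from 151 to 372. The littermate block changed no call among the members but those of Dusp1 and Klf4.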
